A study of Mus musculus with 6 samples.

Results

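DEAD and DEAH box proteins are RNA helicases named after a short amino acid motif in their ATP-binding core. They were studied in whole retinas of wild-type mice (WT) and of rd10 mice, which carry a missense change in the rod phosphodiesterase gene Pde6b and lose their rods in the weeks after birth. The genes were chosen by symbol, as every row of the count table that starts with Ddx or Dhx plus a digit, with the sex-linked pair Ddx3x and Ddx3y left out. This gave 52 of 24062 genes, 36 with a Ddx symbol and 16 with a Dhx symbol. Of the 52, 50 passed a filter on low counts, 49 of them through the libraries of either group and Ddx60 through the rd10 libraries alone. The germ line helicase genes Ddx4 and Ddx43 did not pass, with 2 to 11 counts and 0 to 1 count per library. Both groups are labelled C57Bl6/J, were taken at postnatal day 30 and hold 3 libraries, each from a sample of 2 frozen retinas. The libraries carry the names of their count columns, WT-1, WT-4 and WT-23 against Rd10-3, Rd10-4 and Rd10-5. Which samples stem from different animals is not labelled. The Y-linked gene Ddx3y had counts in 1 of 3 WT libraries (WT-4) and 2 of 3 rd10 libraries (Rd10-3 and Rd10-5) and 0 in the others, so each group holds libraries that differ in sex, and the groups are not balanced for it. The p-values cover the spread among these samples, whatever its source.

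DEAD box proteins clamp onto RNA and pry short duplexes apart, and DEAH box proteins move along RNA, each at the cost of ATP. Different members drive single steps of RNA life: rearranging the spliceosome, passing messenger RNA through the nuclear pore, assembling ribosomes in the nucleolus, silencing messages in cytoplasmic granules, or recognising viral double-stranded RNA. In the retina, photoreceptors carry a heavy load of transcription and splicing, and several general splicing factors are known from inherited retinal degeneration. The symbol is no proof of the enzyme: Ddx26b is an Integrator-related gene, listed in GENCODE as Ints6l, and Ddx11 encodes a DNA helicase of another family.

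Total counts were 13573035 to 15818918 per WT library and 10923556 to 12171088 per rd10 library, and the helicase genes took between 0.434% and 0.545% of them in WT and between 0.434% and 0.492% in rd10. Levels are given as CPM, the count relative to the TMM-scaled library size. Genes were called at an adjusted p under 0.05 (edgeR quasi-likelihood test, Benjamini-Hochberg over all 13905 tested genes), and fold changes carry their standard error. The 15 rod markers listed all fell, and their summed level was 111966 to 131253 CPM in the WT libraries against 22777 to 33175 CPM in those of rd10. The 15 microglia and macrophage markers all rose, from a sum of 153 to 166 CPM to one of 479 to 616 CPM. None of these markers was at 3 counts or fewer in every library. The part of these shifts in the values below was not tested. In whole tissue, fewer cells of a type and less RNA per cell cannot be told apart.

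Of the 50 tested helicase genes, 3 rose in rd10 and 2 fell. Those that rose were the 3 sensors of viral RNA, Ddx58, Dhx58 and Ddx60. Those that fell were Ddx6, of cytoplasmic message silencing, and Ddx19a, of messenger RNA export. Over all genes tested, 7.12% were called higher and 7.32% lower, so the count of 3 higher among 50 is near that background and the count of 2 lower is below it. The other 45 were not called, and 40 of them had negative fold changes. In all, 42 of 50 fold changes were negative, against 53.8% of all tested genes, and the median was -0.22 on the log2 scale against -0.037 for all genes. With library size alone as the scale, 23 were negative, and the median was 0.027 against 0.20 for all genes.

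**Figure D1:**
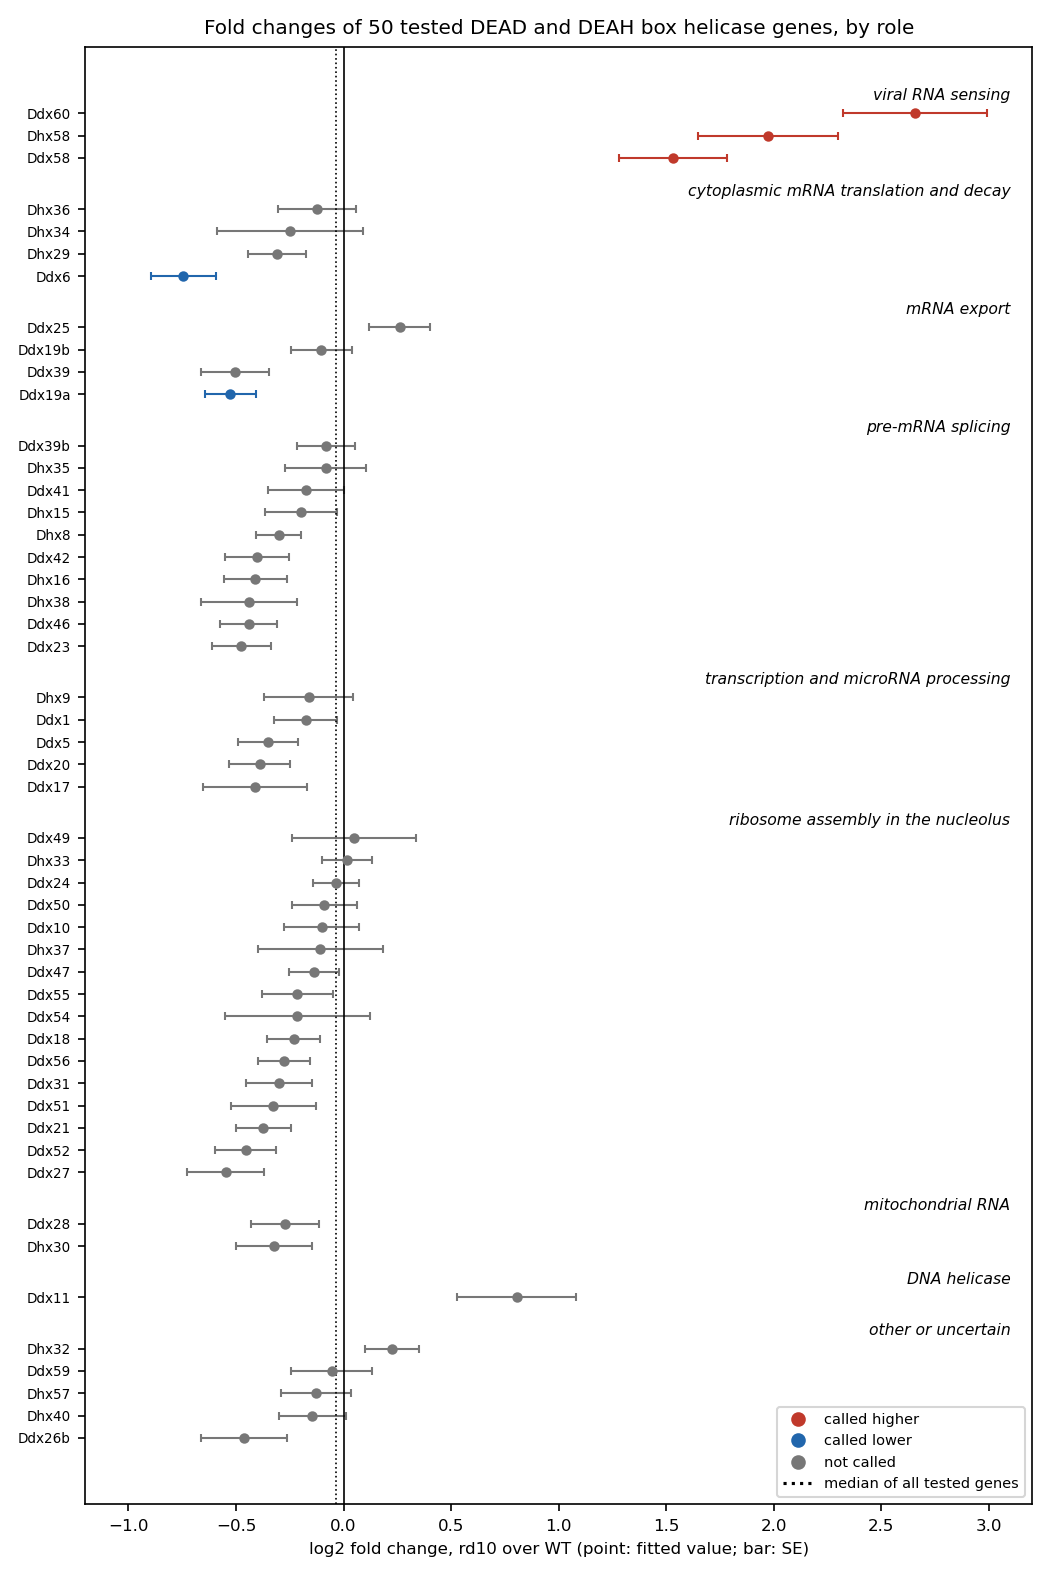
Log2 fold change of rd10 over WT on the horizontal axis for the 50 tested helicase genes, grouped by role, with points for fitted values and bars for standard errors (n = 3 libraries per group). The 3 viral RNA sensors lie between 1.53 and 2.66, the called falls Ddx6 and Ddx19a at -0.75 and -0.53, and most other genes lie a little below 0 and below the median of all tested genes (dotted).

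The promoters of 2 of the sensors are shown because these genes rose and hold the letters of the interferon-stimulated response element, a sequence known from interferon-induced genes. Since they were picked for these traits, the matches in them are no test of a link to the rise. Whether the sequence had a part in the rise was not tested. Each window holds 250 bases before and 50 after the RefSeq start site in GRCm38.p6, and capitals mark each match to GAAA, any 2 bases and GAAA again, or to the reverse complement. Ddx58 lies at chr4:40239776-40240075 on the minus strand and Ddx60 at chr8:61927837-61928136 on the plus strand.
Ddx58: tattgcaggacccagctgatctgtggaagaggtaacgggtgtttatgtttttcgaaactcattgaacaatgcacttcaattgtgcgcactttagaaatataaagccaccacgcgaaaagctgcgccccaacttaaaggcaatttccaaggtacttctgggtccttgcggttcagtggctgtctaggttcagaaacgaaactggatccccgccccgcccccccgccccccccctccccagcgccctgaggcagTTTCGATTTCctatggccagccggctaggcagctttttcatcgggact
Ddx60: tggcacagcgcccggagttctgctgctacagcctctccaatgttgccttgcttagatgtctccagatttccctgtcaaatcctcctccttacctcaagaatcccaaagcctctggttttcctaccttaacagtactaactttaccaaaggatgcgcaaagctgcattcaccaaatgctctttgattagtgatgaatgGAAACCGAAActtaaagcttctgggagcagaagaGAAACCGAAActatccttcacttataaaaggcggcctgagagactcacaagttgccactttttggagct

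The Ddx60 window holds 2 matches, which start 53 and 19 bases before the start site on the sense strand. In Ddx58 the match is on the other strand and begins at base 3 after the start. Of the 52 helicase genes, 45 matched an entry of this table by symbol, with 56 windows, and Dhx58 was not among them. The pair of GAAA words with a gap of 2 bases, searched on both strands, was found in 4 of the 56 windows. These belong to Ddx58, Ddx60 and Ddx49, a nucleolar helicase gene that was not called. Of all 32851 windows, 3.44% held it. A longer form that adds CT at its end, and so contains the first, was found in 2 of the 56 windows, of Ddx58 and Ddx60, and in 0.271% of all windows. A match is a description of the letters and no measurement of binding.

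Ddx58 encodes RIG-I, which binds short viral RNA and signals through the mitochondrial adaptor MAVS. Its level was 6.05, 9.26 and 7.53 CPM in WT-1, WT-4 and WT-23 and 29.5, 19.9 and 16.9 CPM in Rd10-3, Rd10-4 and Rd10-5. The groups did not overlap and Rd10-3 stood highest, with 384 counts against 233 and 222 in the other rd10 libraries. Ddx58 was 2.89-fold higher in rd10, a log2 fold change of 1.53 ± 0.25 (adjusted p = 0.00605).

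Dhx58 encodes LGP2, a relative of RIG-I without its signalling domains. Its counts were 30, 29 and 20 in WT-1, WT-4 and WT-23, and 137, 80 and 72 in Rd10-3, Rd10-4 and Rd10-5, or 1.94 ± 0.55 against 7.60 ± 2.6 CPM (SD, n = 3). Again every rd10 library lay above every WT library, and the log2 fold change was 1.97 ± 0.33 (adjusted p = 0.00613), a 3.93-fold rise. Of the 3272 exon bases of Dhx58, 141 are shared with the antisense gene Dhx58os. The counting is not stated to use strand, so reads there cannot be assigned to either gene with certainty.

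Ddx60, an interferon-induced helicase that takes part in antiviral defence, was the lowest of the 3 in WT, with 12, 11 and 17 counts. In rd10 it had 111, 50 and 74 counts, the highest again in Rd10-3. The log2 fold change was 2.66 ± 0.33, a 6.30-fold rise (adjusted p = 0.00195). Because Ddx60 passed the filter through its rd10 libraries, its presence among the tested genes already depended on its high rd10 level.

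**Figure D2:**
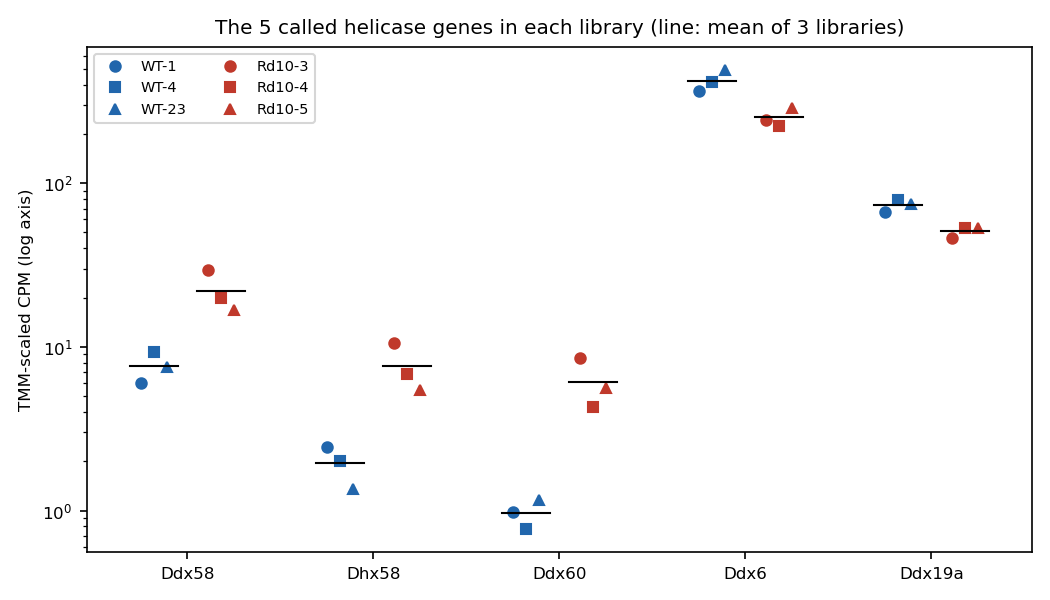
TMM-scaled CPM on a log axis for the 5 called helicase genes, with 1 point for each library and a line at the mean of 3 libraries. Ddx58, Dhx58 and Ddx60 have all rd10 points above all WT points, Ddx6 and Ddx19a are lower, and Rd10-3 is the highest rd10 library for the 3 sensors.

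Leaving out Rd10-3 lowered the log2 fold changes of Ddx58, Dhx58 and Ddx60 to 1.27, 1.66 and 2.34 and kept their calls (adjusted p = 0.0242, 0.0262 and 0.00821). Over all alternatives that tested them the adjusted p ran from 5.85e-07 to 0.0242 for Ddx58, from 1.59e-06 to 0.0339 for Dhx58 and from 4.12e-09 to 0.0156 for Ddx60. The filter at a mean of 5 CPM removed Dhx58 and Ddx60 before testing.

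Genes around these sensors were taken from a list of 18 genes of the RIG-I pathway and its interferon response, of which 17 were tested. Of these, 10 rose, beside 7.12% of all tested genes, none fell and 7 were not called, with a median log2 fold change of 1.03. Ifih1, which encodes MDA5, the third RIG-I-like receptor, rose by 1.28 ± 0.27 from 7.77 to 18.9 CPM (adjusted p = 0.0161). Some genes between receptor and effector are named for their place in the pathway, after their values were seen. Mavs, the adaptor gene, was not called (-0.12 ± 0.12), and neither were the kinase gene Tbk1 (-0.077 ± 0.13) and the transcription factor genes Irf3 (-0.32 ± 0.23) and Irf7 (0.83 ± 0.35).

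The genes of the list that rose were receptors, interferon signalling factors and interferon-induced effectors. Ifit1, which binds foreign RNA ends, rose by 3.04 ± 0.39, and Isg15, a ubiquitin-like modifier, by 3.03 ± 0.46 on the log2 scale. Oasl2, of the oligoadenylate synthetase family, rose by 2.36 ± 0.31 and Zc3hav1, an antiviral zinc finger gene, by 2.01 ± 0.31.

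Each of these 10 genes was highest in Rd10-3 among the rd10 libraries, as were the 3 helicase sensors. The list's summed level was 277, 332 and 276 CPM in the WT libraries and 858, 492 and 514 CPM in the rd10 libraries. Microglia and macrophage markers were ordered differently, with 11 of 15 highest in Rd10-4, 3 in Rd10-3 and 1 in Rd10-5. Rd10-4 was also the rd10 library that favoured GC-rich transcripts (below), and the median transcript GC content was 52.9% for the microglial markers, 49.9% for the tested pathway genes and 46.6% for the 3 sensors. Of the sensors, Dhx58 lay above the microglial median, at 53.9%, and was also highest in Rd10-3. The summed rod markers were lowest in Rd10-3, at 22777 CPM against 27108 in Rd10-4 and 33175 in Rd10-5. The part of GC content, of microglial cells, of rod loss and of the state of a single sample in this order was not tested.

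**Figure D3:**
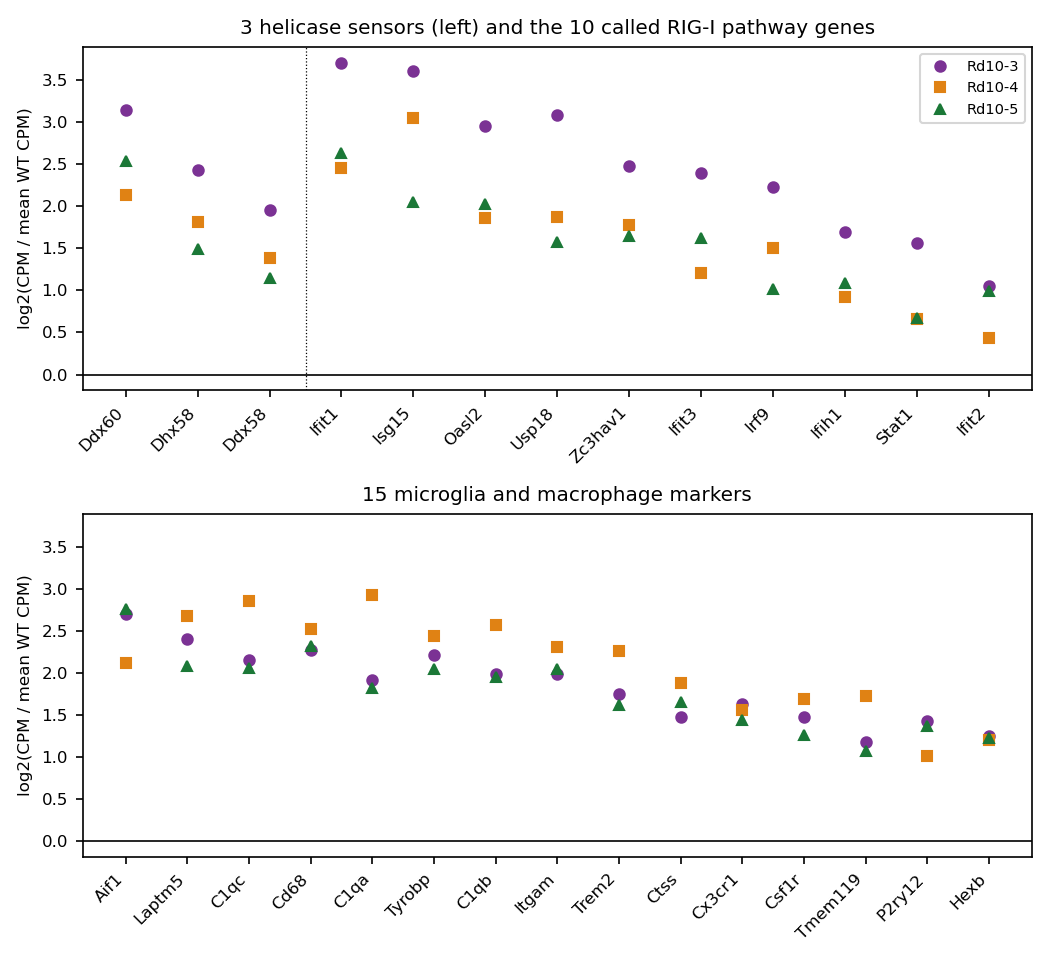
Log2 ratio of each rd10 library's CPM to the WT mean, for the 3 helicase sensors and the 10 called RIG-I pathway genes (upper panel) and for 15 microglia and macrophage markers (lower panel). Rd10-3 (circles) is the highest point for all 13 genes of the upper panel, and Rd10-4 (squares) is the highest for 11 of the 15 markers of the lower panel.

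Ddx6 encodes a helicase that represses translation and promotes decapping of messenger RNA in processing bodies, and it works with the microRNA machinery. Its level was 366, 413 and 491 CPM in WT-1, WT-4 and WT-23 and 244, 224 and 290 CPM in Rd10-3, Rd10-4 and Rd10-5. The lowest WT library lay above the highest rd10 library. Ddx6 was 1.68-fold lower in rd10, with a log2 fold change of -0.75 ± 0.15 (adjusted p = 0.0143).

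The call of Ddx6 was lost when WT-4 (adjusted p = 0.0702), Rd10-3 (0.0785) or Rd10-4 (0.0539) was left out and, narrowly, with library size alone as the scale (0.051). Its adjusted p was between 0.000117 and 0.0785 over all alternatives, and its fold change stayed negative in each.

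Among the other members of cytoplasmic translation and decay, Dhx29 helps ribosomes scan structured leaders, Dhx36 unwinds G-quadruplexes and Dhx34 acts in nonsense-mediated decay. None of these 3 was called, with log2 fold changes of -0.31 ± 0.13, -0.12 ± 0.18 and -0.25 ± 0.34. Dhx29 did not overlap between the groups, with 55.4 to 71.6 CPM in WT and 49.9 to 55.2 CPM in rd10. Dicer1, which makes the small RNAs that act with Ddx6 and is itself a helicase outside this naming, fell by 0.68 ± 0.14 (adjusted p = 0.0146).

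Ddx19a belongs to the DEAD box pair that strips proteins from messenger RNA at the cytoplasmic face of the nuclear pore. WT-1, WT-4 and WT-23 had 67.1, 78.6 and 74.5 CPM, and Rd10-3, Rd10-4 and Rd10-5 had 46.4, 53.0 and 53.5 CPM. The groups did not overlap, and the level was 1.44-fold lower in rd10, with a log2 fold change of -0.53 ± 0.12 (adjusted p = 0.0238). Its call held only without WT-1 among the fits that left a library out, since it was lost without WT-4 (adjusted p = 0.141), WT-23 (0.0509), Rd10-3 (0.131), Rd10-4 (0.0629) and Rd10-5 (0.0654). It was also lost with library size alone (0.138) and with the presence of Y-linked counts as a term (0.0534). Its log2 fold change was -0.29 with library size alone, -0.54 with the Y-linked term and between -0.59 and -0.46 in the fits without a library. Over all alternatives its adjusted p ran from 0.00163 to 0.141.

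Ddx19b, the neighbouring copy on chromosome 8, was not called, with 66.8 ± 10.4 CPM in WT and 62.2 ± 5.1 CPM in rd10 (log2 fold change -0.10 ± 0.14). The pair was picked for comparison after its values were seen. Of the 50-base stretches in Ddx19a transcripts, 28.1% also occur in Ddx19b transcripts, so that reads from them could be split between the copies or dropped, and each value is uncertain. The ratio of Ddx19a to Ddx19b CPM was 1.11, 1.29 and 0.946 in WT and 0.713, 0.941 and 0.822 in rd10. Every rd10 ratio lay below every WT ratio, though WT-23 and Rd10-4 nearly met (two-sided exact permutation test of the log2 ratio, p = 0.1, and no smaller p is possible with 3 libraries per group). Ddx19a was called lower in these same libraries, so its ratio is no independent evidence. The same permutation test gave p = 0.1 for Ddx21 to Ddx50 and p = 0.2 for Ddx39 to Ddx39b. For Ddx5 to Ddx17, also compared, the mean ratio was 3.25 in WT and 3.14 in rd10.

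Ddx25, an export helicase best known from testis, and Ddx39, a close relative of the export and splicing helicase Ddx39b, were not called. Ddx25 had 32.5, 35.4 and 36.5 CPM in WT and 49.0, 38.6 and 37.7 CPM in rd10. It was 1 of 5 helicase genes whose rd10 libraries all lay above WT, or 10% of the 50, against 17.1% of all tested genes. Ddx39 had 14.7 to 19.9 CPM in WT and 11.5 to 12.6 CPM in rd10, without overlap (log2 fold change -0.50 ± 0.16, adjusted p = 0.0704).

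All 10 splicing helicase genes had negative fold changes with TMM scaling, and none was called. Scaled by library size alone 6 of them were negative, and by upper quartile factors 8. Their log2 fold changes ran from -0.48 to -0.083 with a median of -0.35, and 4 of the 10 had rd10 libraries wholly below WT. Their summed level was 942, 997 and 973 CPM in WT and 757, 778 and 792 CPM in rd10. Over all genes tested, 18.6% had rd10 libraries wholly below WT, and so did 17 of the 50 helicase genes.

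Ddx23, the helicase that joins the tri-snRNP to the early spliceosome, came nearest to the threshold. It had 148, 138 and 113 CPM in WT and 87.0, 105 and 95.5 CPM in rd10, with a log2 fold change of -0.48 ± 0.14 (adjusted p = 0.0542). Ddx46, the most abundant splicing member by counts, acts when the branch point is recognised. It had 139, 169 and 181 CPM in WT and 117, 113 and 131 CPM in rd10, again without overlap (-0.44 ± 0.13, adjusted p = 0.0626). By DESeq2 both passed (adjusted p = 0.028 for Ddx23 and 0.0498 for Ddx46). Each was called in 5 of 17 alternatives, and the largest adjusted p was 0.243 for Ddx23 and 0.347 for Ddx46.

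Later steps of splicing are driven by the DEAH members. Dhx16 and Dhx38 remodel the spliceosome around the first and second chemical step, and their fold changes were -0.41 ± 0.15 and -0.44 ± 0.22. Dhx8 releases the spliced message (-0.30 ± 0.11), and Dhx15 takes the used complex apart (-0.20 ± 0.17). None of the 4 was called, and in Dhx38 and Dhx15 the groups overlapped. Ddx39b, which couples splicing to export, had 121 ± 15 CPM in WT and 114 ± 10 CPM in rd10.

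Among 22 spliceosome and exon junction partners, 2 (Dhx8 and Ddx23) are helicase genes of this set. Of the 22, 2 fell, beside 7.32% of all tested genes, none rose and 20 were not called, with a median of -0.24. Those called were Alyref and Thoc2, which work in the export complex with Ddx39b, at -0.91 ± 0.22 and -0.76 ± 0.21 on the log2 scale (adjusted p = 0.0313 and 0.0442).

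The most abundant helicase genes act in transcription and microRNA processing. Per kilobase of exon, the scale used here to compare genes, Ddx5 stood first with 246 ± 30 CPM per kilobase in WT and 193 ± 22 in rd10 (SD, n = 3). Ddx17, Ddx1 and Ddx6 followed in WT, at 61.7 ± 23.9, 61.1 ± 7.7 and 52.7 ± 7.9 CPM per kilobase. The last 3 did not differ in WT beyond their spread, while Ddx5 lay well above them. In rd10 the order was Ddx5, Ddx1, Ddx17 and Ddx6. At the other end, Ddx60, Dhx58 and Ddx58 ranked 51st, 48th and 46th of 52 in WT and 48th, 43rd and 38th in rd10.

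**Figure D4:**
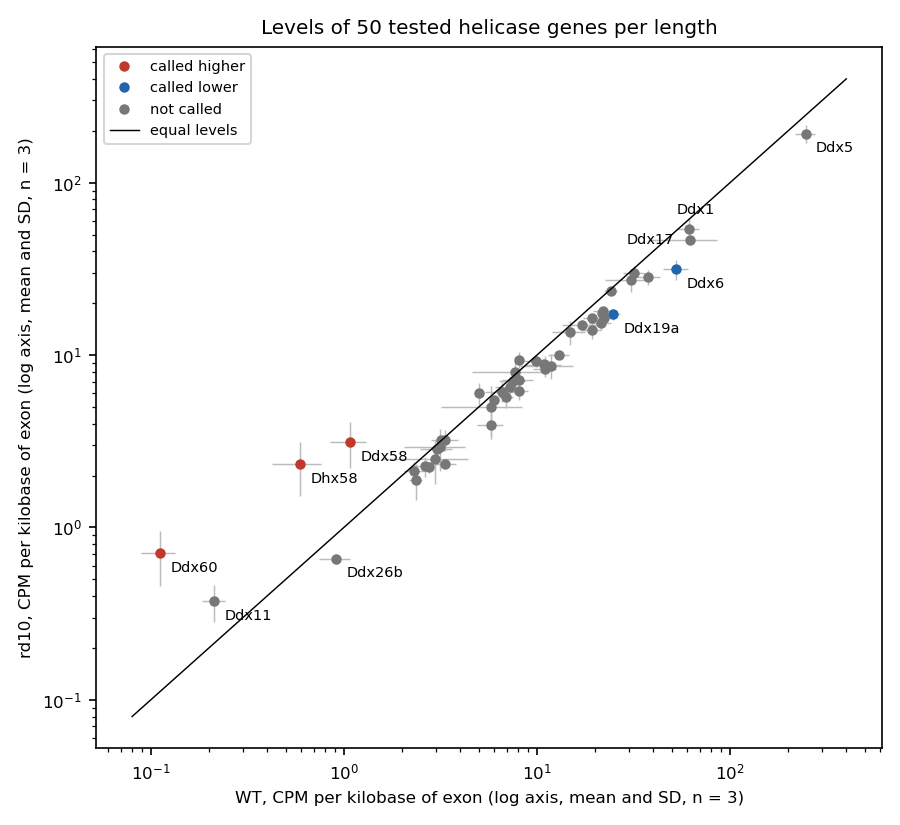
Mean level per kilobase of exon in WT (horizontal, log axis) and rd10 (vertical, log axis) for the 50 tested helicase genes, with bars for the SD of 3 libraries. Ddx5 is the highest in either group, Ddx58, Dhx58 and Ddx60 lie far above the line of equal levels at the low end, and most abundant genes lie a little below it.

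Ddx5, a coactivator of transcription that also assists microRNA processing, had 1229, 1465 and 1569 CPM in WT and 1152, 970 and 1218 CPM in rd10. The groups did not overlap, but the difference missed the threshold (log2 fold change -0.35 ± 0.14, adjusted p = 0.135). Its paralog Ddx17 had 398, 337 and 679 CPM in WT and 363, 343 and 357 CPM in rd10. WT-23 stood far above the other libraries, and without it the log2 fold change went from -0.41 ± 0.24 to -0.030.

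Ddx1 (-0.18 ± 0.15), which is linked to transfer RNA ligation, and Dhx9 (-0.16 ± 0.21), an RNA helicase of transcription complexes, overlapped between the groups. Ddx20, a partner of the SMN complex that builds splicing particles, did not (-0.39 ± 0.14, adjusted p = 0.107). None of the 5 genes of this role was called. Across levels, TMM fold changes were negative in 13 of 13 helicase genes at 100 CPM or more on average. They were negative in 17 of 21 between 20 and 100 CPM and in 12 of 16 below 20 CPM. The TMM share over all tested genes, of any level, was 53.8%, and none is given here for genes of like level. With library size alone the helicase counts, in the same order, were 7, 10 and 6, and the median of all genes was 0.20.

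The largest role was ribosome assembly, with 16 nucleolar members, of which none was called. Of these, 14 had negative fold changes with TMM and the median was -0.22, whereas with library size alone 6 were negative and the median was 0.027. In 6 of the 16 the rd10 libraries lay wholly below WT, beside 18.6% of all tested genes. Ddx24, the most abundant by counts, had 198, 214 and 183 CPM in WT and 194, 190 and 197 CPM in rd10, which overlap. Ddx27, which acts in maturation of the large subunit's RNA, had the lowest fold change of the role, with 23.5 to 32.1 CPM in WT and 16.0 to 22.3 CPM in rd10 (-0.55 ± 0.18, adjusted p = 0.0772). Ddx52 came nearest to the threshold in this role (-0.45 ± 0.14, adjusted p = 0.0691), and its groups did not overlap. Ddx21, which couples transcription and processing of ribosomal RNA, had 58.3, 68.1 and 75.2 CPM in WT and 52.0, 50.2 and 53.5 CPM in rd10 (-0.37 ± 0.13, adjusted p = 0.0907). Its neighbour and paralog Ddx50 overlapped between the groups (-0.091 ± 0.15).

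Among 24 other genes of the nucleolus and of ribosome assembly, 1 fell, beside 7.32% of all tested genes. None rose and 23 were not called, with a median of -0.17. The gene that fell was Pes1, a large subunit assembly factor (-0.48 ± 0.10, adjusted p = 0.018). Both mitochondrial members were uncalled as well: Dhx30, which binds mitochondrial transcripts (-0.32 ± 0.18), and Ddx28, which assists the mitochondrial ribosome (-0.27 ± 0.16).

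Ddx11, the DNA helicase of sister chromatid cohesion, had few reads, with 20, 19 and 19 counts per WT library and 26, 37 and 30 per rd10 library. The groups did not overlap after scaling, but the log2 fold change of 0.80 ± 0.28 missed the threshold (adjusted p = 0.0926). It passed with the GC trend removed and with library size alone. Of the 5 members with another or uncertain role, Dhx32 was the most abundant by counts, with 32.1 to 35.1 CPM in WT and 34.7 to 41.8 CPM in rd10. Ddx26b lay lower in each rd10 library (4.37 to 4.95 CPM) than in WT (5.71 to 7.87 CPM). Dhx40, Dhx57 and Ddx59 overlapped, and none of the 5 was called.

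RNA helicases with other names were described from a list of 22 genes, of which 20 were tested. Among these, 2 rose and 4 fell, beside 7.12% and 7.32% of all tested genes, and 14 were not called, with a median of -0.19. Ifih1 and Mov10, an antiviral helicase gene (1.12 ± 0.28, adjusted p = 0.0338), rose. Besides Dicer1, those that fell were Aqr, of the spliceosome (-0.52 ± 0.12), Eif4a3, the anchor of the exon junction complex (-0.56 ± 0.14), and Supv3l1, of mitochondrial RNA decay (-0.45 ± 0.12). The abundant translation helicase genes Eif4a1 and Eif4a2 were not called (-0.22 ± 0.12 and -0.17 ± 0.15).

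Within each group, libraries differed along the GC content of the helicase transcripts, to unequal degrees. This content ran from 37.4% (Ddx50) to 59.6% (Dhx34). In WT-1, the 10 tested members with at least 55% GC lay by a median of 0.58 log2 units above the mean of the other 2 WT libraries, and the 12 members under 45% GC lay by -0.33 from it. In WT-23 the medians were -0.46 and 0.31, and in Rd10-4 they were 0.33 and -0.28 against the other rd10 libraries. Pearson's r between GC content and this deviation over the 50 members was 0.79 for WT-1, -0.16 for WT-4 and -0.76 for WT-23. It was -0.43 for Rd10-3, 0.81 for Rd10-4 and -0.58 for Rd10-5. Over all tested genes it was 0.73, -0.20 and -0.68 for the WT libraries and -0.37, 0.63 and -0.47 for the rd10 libraries, in the same order. These genes share libraries and base composition, and the values are descriptions.

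Dhx34, of the highest GC content, had 21.1, 10.7 and 9.15 CPM in WT and 9.82, 15.3 and 9.36 CPM in rd10. Ddx54, a nucleolar member of 59.0% GC, had 52.9, 31.8 and 21.8 CPM in WT and 26.8, 41.7 and 23.1 CPM in rd10. Between the groups, GC content and fold change of the 50 members had a Pearson's r of -0.12. Removing a smooth trend with GC content from each library raised the called falls from 2 to 17 of 50, while over all genes 17.8% were then called lower. The median of the 50 fold changes was then -0.24. Without WT-1 and Rd10-4, an alternative added after the data were seen, 10 members were called lower, and 9.92% of all genes.

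**Figure D5:**
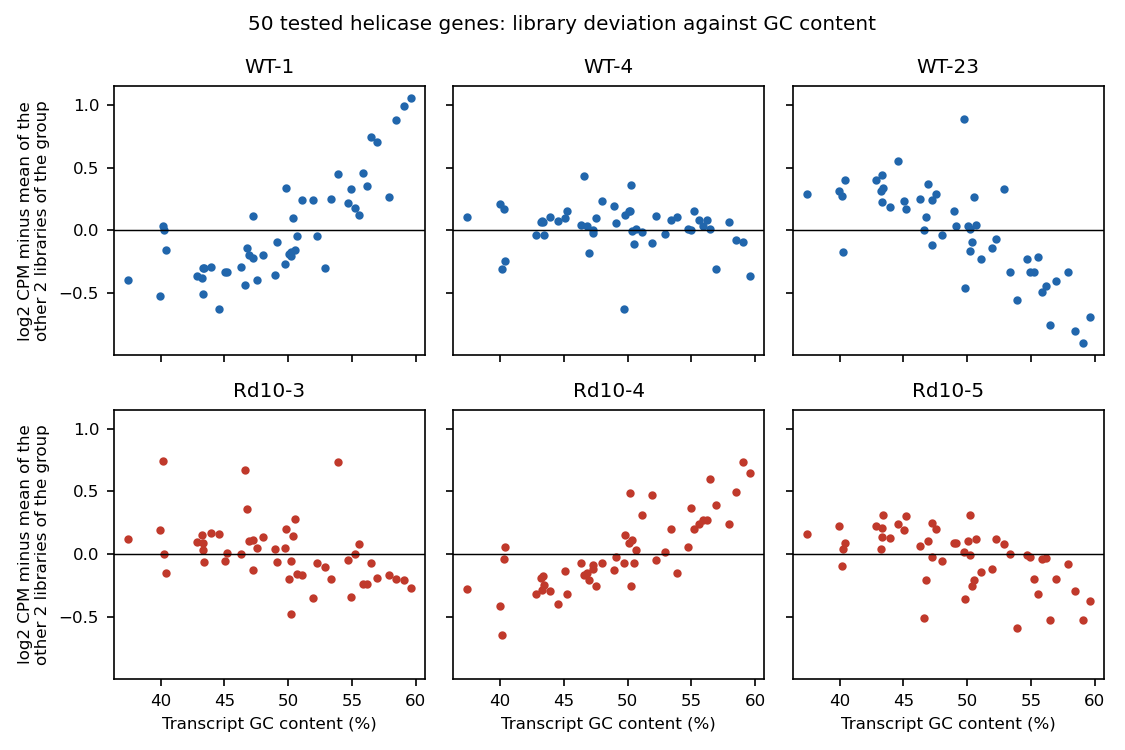
Deviation of each library from the mean of the other 2 libraries of its group (log2 CPM, vertical) against transcript GC content in percent (horizontal), with 1 point for each of the 50 tested helicase genes. The points rise with GC content in WT-1 and Rd10-4 and descend in WT-23, by up to about 1 log2 unit at the GC-rich end.

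The authors' deposited table, in mm10, places Ddx58 on chromosome 4 from 40203773 to 40239828, Dhx58 on chromosome 11 from 100694884 to 100704271 and Ddx60 on chromosome 8 from 61928087 to 62037701. The same authors' deposited table places Ddx6 on chromosome 9 from 44604892 to 44640731 and Ddx19a on chromosome 8 from 110974996 to 110997800. It holds 3427 rows in all, beside the 24062 genes counted. It lists 16 of the 52 helicase genes, 3 higher and 13 lower in rd10. Its log2 fold changes differ from those given here by at most 0.00295. The name of that table reads as a selection by p-value, fold change and FPKM, and its p-values are not labelled as adjusted. The share of all its rows in each direction is not given here. Of the 16 genes, 5 were called here at an adjusted p over all genes, so 16 and 5 are not counts at a like threshold.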

How the data were processed

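The members and gene lists were chosen with earlier results of these data known. Strand-marking libraries were built from 1 µg of total RNA, per the labels. The submitters' processing notes name build mm10 and, without their roles, TopHat2 2.1.0, HTSeq and edgeR; no source used here gives the annotation. For 6 libraries the authors deposited raw counts per gene. Per the file headers, their comparison tables hold FPKM by group, log2 fold changes and p-values. The column numbers are not the series of replicate numbers in the titles, so columns were assigned to groups by name and not to single samples.

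Counts were filtered with filterByExpr and fitted with edgeR 4.0.16 in R 4.3.3 (TMM, robust quasi-likelihood, genotype alone), two-sided, with Benjamini-Hochberg adjustment at 0.05. The fit was tested on simulated data of 13778 genes: at a true fold of 1.5 it recovered 14.5% of 62 genes, at 2 it recovered 54.3% of 70, and at 4 it recovered 97.1% of 68, with 5 false calls. No 2 libraries within a group agreed to within sampling noise (chi-square per degree of freedom 7.36 to 57.8). Lengths (exon union) and GC content (longest transcript) came from GENCODE M21 for all 52 members; promoters came from RefSeq.

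Genes were named by rule: every called member, the most abundant tested member of each role by CPM, members that failed the filter, and up to 4 called genes per pathway list. Others complete a role or count, and some uncalled ones, such as Ddx23 and Ddx27, were named for their values. Alternatives used RLE, upper quartile, library size or inner neuron scaling, DESeq2 1.42.0, limma 3.58.1 voom, other filters, GC trend removal (loess, span 0.5), each library left out, and, added after seeing the data, a Y-linked term (Ddx3y above 10 counts) and both GC-extreme libraries left out.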

Additional observations from a re-analysis of the deposited data

How the results depend on the processing

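Ddx58, Dhx58 and Ddx60 kept their direction and call in every alternative that tested them. With library size alone 3043 of 13905 tested genes were called, 81.2% of them higher. Of the helicase genes 6 were then higher and 0 lower, and the helicase median was 0.027. With inner neuron scaling 3217 genes were called, 19 helicase genes lower, and the helicase median was -0.45. These scales move the median of all genes by 0.24 and -0.24. The helicase median lay below it by -0.23 to -0.15 in every alternative run. A scale shifts all genes about alike, so agreement between scales in this difference was fixed in advance. Of all calls, TMM put 49.3% on the higher side, upper quartile factors 63.3% and library size alone 81.2%, and inner neuron scaling gave 20.1%. All genes called lower were 18.5% of those tested with inner neuron scaling, 17.8% with the GC trend removed and 8.59% with DESeq2. They were 4.11% with library size alone and 5.02% with the Y-linked term. Without WT-1 they were 11.8%, without WT-23 6.54% and without WT-4 3.32%. Without Rd10-3 they were 2.91%, without Rd10-4 4.28% and without Rd10-5 4.69%. With the GC trend removed 4637 genes were called and 17 helicase genes lower. DESeq2 called 4 lower, the Y-linked term 1, and 10 were lower without WT-1 and Rd10-4. The filter at a mean of 5 CPM left 1 helicase gene called higher, since it removed the other 2. Leaving out each library in turn gave 885 to 3214 called genes and 0 to 10 helicase genes lower (10 without WT-1, 3 without WT-23, 1 without Rd10-5, 0 without WT-4, Rd10-3 or Rd10-4), with 3 higher each time and a median of -0.27 to -0.19. Beyond what fewer samples or genes bring, the cause was not tested. No called helicase gene changed sign; of the uncalled ones 19 did with library size alone, 5 with upper quartile factors, 3 each with inner neuron scaling and GC trend removal, 1 without WT-1 and Rd10-4, and 0 to 5 when a library was left out. Values for 3 of these are Ddx24 (0.059 with upper quartile factors, 0.21 on library size alone, 0.047 with the GC trend removed, and 0.0415 without WT-4, with -0.0706 the lowest when a library was left out), Ddx19b (0.13 with library size alone, 0.0528 without WT-23, with -0.17 the lowest when a library was left out) and Dhx32 (-0.0185 with inner neuron scaling). No paired analysis was possible because the count columns carry none of the replicate numbers of the titles. At these depths the simulated fit recovered few 1.5-fold changes, so an uncalled helicase gene is not shown to be equal in the groups.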

Other observations

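The FPKM values in the authors' deposited table imply very unequal gene lengths for the helicase genes when set beside CPM from the counts. CPM divided by FPKM gives an implied length, which was between 0.0586 and 1.60 times the GENCODE exon length for the 16 genes listed, with a median of 0.602. The lowest ratios were those of Ddx60 and Ddx6, at 0.0586 and 0.0653, an implied 0.509 and 0.525 kilobases against 8684 and 8035 exon bases. In the authors' deposited table Ddx6 thus stands above Ddx5 in WT (806.8 against 449.3 FPKM), whereas per kilobase of exon it lies below Ddx5 (52.7 against 246 CPM per kilobase). No source used here says how the FPKM values were made, and the source of the difference was not tested. The log2 fold changes of that authors' deposited table differ from those of the counts by at most 0.00295.

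Of the sex-linked pair left out by rule, Ddx3y, on the Y chromosome, had 1184 counts in WT-4, 957 in Rd10-3 and 1054 in Rd10-5 and 0 in the other 3 libraries. Ddx3x, its X-linked partner, was present in each library, with 4928, 5862 and 9486 counts for WT and 4258, 3734 and 4693 for rd10, and was not called (log2 fold change -0.54 ± 0.19, edgeR adjusted p = 0.0986). In WT-23 Ddx3x and Ddx17 both stood above the other WT libraries.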
